A study of Mus musculus with 12 samples.

Results

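The endoplasmic reticulum (ER) chaperone and folding genes Hspa5, Hsp90b1, Calr, Canx, Pdia3, Pdia4, Pdia6, Dnajb9 and Sdf2l1, together with the transcription factor gene Xbp1, were followed in mouse skeletal muscle expressing Dux. The genes were chosen by symbol, with earlier results of these data known, so their counts set against all genes are descriptive. All 10 were found among the 12752 genes of the count table and passed the filter on low counts. The muscle was tibialis anterior of male C57BL/6 mice, injected at 8 weeks of age with adeno-associated virus (AAV). Every limb received AAV:TET, so all groups carried it. One limb also received the empty vector AAV:MCS and the contralateral limb AAV:Dux, which encodes the mouse homologue of the human transcription factor DUX4. From 7 days after injection mice ate normal chow or chow with 600 mg/kg doxycycline, for 2 or 7 days, and the labels do not say which applies. The 4 groups had 3 RNA-seq libraries each: empty vector on normal chow (EV), Dux vector on normal chow (DUX), empty vector on doxycycline chow (EV_DOX) and Dux vector on doxycycline chow (DUX_DOX). Libraries were made from whole muscle, so each value averages over its cell types and over cells with and without the vector.

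Total counts ran from 11880593 to 13811999 per library, and levels are given as CPM, which are counts scaled to a common library total after correction for library composition. All 15 muscle fibre markers searched for were measured, with a summed level of 141100 to 189000 CPM, so the libraries carried the markers of the labelled tissue. Fold changes, their standard errors (SE) and their adjusted p-values come from the quasi-likelihood test of edgeR, in which a gene passed at an adjusted p under 0.05 over 12751 genes. Nothing in the labels says that libraries of a group are separate animals, so p-values here measure only how far libraries differ, which may be technical.

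Proteins that enter the ER are folded by chaperones of the Hsp70 and Hsp90 families, by the lectin chaperones of the calnexin cycle and by protein disulfide isomerases, which form and rearrange disulfide bonds. When unfolded proteins accumulate, the sensors IRE1, ATF6 and PERK start the unfolded protein response. IRE1 splices Xbp1 mRNA so that it encodes an active transcription factor, cleaved ATF6 and spliced XBP1 raise ER chaperone genes, and PERK slows translation and raises ATF4. In skeletal muscle the ER is specialised as the sarcoplasmic reticulum, which stores the calcium that drives contraction.

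Promoters are shown first because the ER stress element, a CCAAT box followed by 9 bases of any kind and a CCACG box, is the classical site through which ATF6 acts on chaperone genes. The RefSeq promoter windows on GRCm38.p6 run from 250 bases before to 50 bases after the annotated start, and 10 of 10 genes had one. The element was searched letter for letter on both strands, so copies that differ in a box or in the spacing were not counted. It was present in the windows of Hspa5, Hsp90b1, Calr, Canx and Pdia6. That is 5 of 10 genes, against 39 of 32851 windows (0.119%) and 0.122% of the 12284 windows of measured genes. Because the element is already known as a site of chaperone genes, its presence in these genes is not an independent result. The sequences of these genes, and of Sdf2l1 for contrast, are printed on the strand of the gene with both boxes of each complete element in capitals. On the opposite strand the element reads as its reverse complement, with CGTGG before ATTGG.
Hspa5, chr2:34771840-34772139, + strand: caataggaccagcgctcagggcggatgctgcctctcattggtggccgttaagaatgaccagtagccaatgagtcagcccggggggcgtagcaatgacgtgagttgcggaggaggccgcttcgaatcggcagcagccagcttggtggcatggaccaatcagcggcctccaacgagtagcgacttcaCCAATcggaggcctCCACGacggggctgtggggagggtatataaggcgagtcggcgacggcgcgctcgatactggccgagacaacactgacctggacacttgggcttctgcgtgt
Hsp90b1, chr10:86705395-86705694, - strand: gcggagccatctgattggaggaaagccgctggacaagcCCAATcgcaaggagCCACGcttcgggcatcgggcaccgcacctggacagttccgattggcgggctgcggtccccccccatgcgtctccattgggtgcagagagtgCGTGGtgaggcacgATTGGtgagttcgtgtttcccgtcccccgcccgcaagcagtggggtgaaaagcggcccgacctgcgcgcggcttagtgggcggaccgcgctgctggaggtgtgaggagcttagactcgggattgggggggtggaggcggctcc
Calr, chr8:84846882-84847181, - strand: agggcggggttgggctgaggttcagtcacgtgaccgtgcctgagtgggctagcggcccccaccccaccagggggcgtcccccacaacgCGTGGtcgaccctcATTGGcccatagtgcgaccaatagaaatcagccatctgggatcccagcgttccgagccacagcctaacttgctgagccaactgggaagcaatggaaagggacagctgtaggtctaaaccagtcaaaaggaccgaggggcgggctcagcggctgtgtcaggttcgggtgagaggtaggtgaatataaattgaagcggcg
Canx, chr11:50325624-50325923, - strand: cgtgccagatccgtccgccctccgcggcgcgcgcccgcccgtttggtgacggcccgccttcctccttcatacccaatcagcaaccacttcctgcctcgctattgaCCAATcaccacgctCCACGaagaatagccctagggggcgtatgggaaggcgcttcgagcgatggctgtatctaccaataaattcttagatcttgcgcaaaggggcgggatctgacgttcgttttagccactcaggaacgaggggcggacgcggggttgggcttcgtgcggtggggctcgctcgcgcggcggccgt
Pdia6, chr12:17266339-17266638, + strand: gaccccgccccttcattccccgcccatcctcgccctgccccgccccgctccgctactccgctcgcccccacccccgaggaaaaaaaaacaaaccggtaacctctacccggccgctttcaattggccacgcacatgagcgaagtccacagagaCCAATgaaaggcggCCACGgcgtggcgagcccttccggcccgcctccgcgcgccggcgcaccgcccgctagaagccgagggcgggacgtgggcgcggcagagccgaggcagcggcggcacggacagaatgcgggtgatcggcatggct
Sdf2l1, chr16:17132334-17132633, - strand: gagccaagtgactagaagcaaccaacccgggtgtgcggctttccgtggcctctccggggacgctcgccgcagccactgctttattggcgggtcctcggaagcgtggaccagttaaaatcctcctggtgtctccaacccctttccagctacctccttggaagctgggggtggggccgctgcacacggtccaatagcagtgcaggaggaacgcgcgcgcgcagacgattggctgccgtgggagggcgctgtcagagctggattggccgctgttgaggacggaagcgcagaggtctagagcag

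The Hspa5 element began 65 bases before the start, on the strand of the gene, and those of Canx and Pdia6 began 145 and 98 bases before it, also on that strand. Calr had its element on the opposite strand, from 162 bases before the start. Hsp90b1 had a pair of elements, from 212 bases before the start on the gene's strand and from 107 bases before it on the opposite strand. The boxes also occurred apart from each other. CCAAT, which is part of the element, was present in 9 of 10 windows, against 37.4% of all windows and 37.0% of those of measured genes. CCACG, the element's other part, was present in 8 of 10, against 32.8% of all windows and 46.2% of those of measured genes. The window of Xbp1 had neither box, and that of Pdia3 had CCAAT only. Neither the compact ER stress element II, which is ATTGG, 1 base of any kind and CCACG, nor the unfolded protein response element core TGACGTGG was found in any of the 10 windows, against 0.0365% and 0.676% of all windows and 0.0651% and 0.879% of those of measured genes. The share of G and C was 60.3% to 75.7% in 9 of the 10 windows and 51.0% in that of Xbp1, beside a median of 52.7% over all windows.

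**Figure D1:**
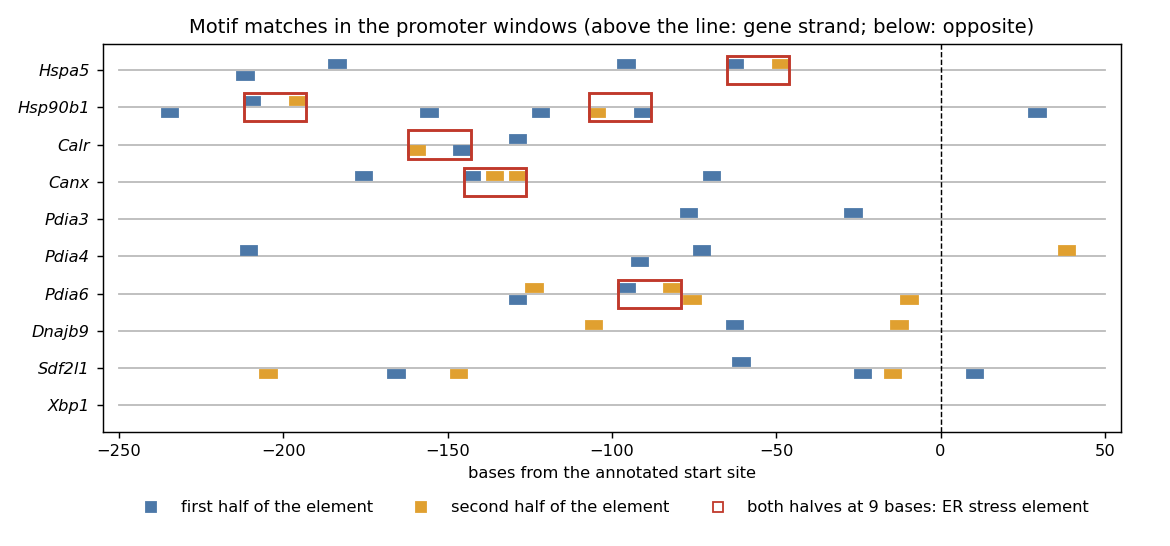
Positions of both boxes of the ER stress element in the promoter windows of the 10 genes, in bases from the annotated start (dashed line), with marks above each line for the strand of the gene and below it for the opposite strand. Open frames mark complete elements, which lie in the windows of Hspa5, Hsp90b1 (a pair), Calr, Canx and Pdia6.

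The first question was whether the genes differed when the Dux vector was switched on by doxycycline. All 10 were higher in DUX_DOX than in EV_DOX, against 14.9% of the genes tested that rose and 25.3% that changed in either direction. Sdf2l1 rose 6.59-fold, Dnajb9 2.12-fold and Hspa5 2.08-fold, and Canx had the smallest rise at 1.32-fold. The median log2 fold change of the 10 was 0.83, beside -0.01 for all genes tested. The summed level of the 10 was 672.4 ± 55.2 CPM (SD, n = 3) in EV_DOX and 1164 ± 38.5 CPM in DUX_DOX. For each of the 10 genes the lowest DUX_DOX library lay above the highest of the other 9 libraries, which held for 15.7% of all genes. In whole muscle, more RNA per cell and more cells of a type that carries it cannot be told apart.

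Markers of some other cells moved beside the chaperones. Counts of markers that passed are to be read beside the 14.9% higher and 10.3% lower over all genes. Of 24 macrophage and monocyte markers measured, 19 were higher in DUX_DOX than in EV_DOX and none was lower. Their summed level was 162.1 to 221.3 CPM in EV_DOX and 371.4 to 541.7 CPM in DUX_DOX. Muscle fibre markers summed to 170400 to 184300 CPM in EV_DOX and 141100 to 160400 CPM in DUX_DOX, with 1 of 15 higher (Des) and 4 lower. Plasma cells are known for a high content of ER chaperones and of Xbp1, and 5 of 12 B and plasma cell markers were measured. These summed to 62.8 to 113.5 CPM in EV_DOX and 42.6 to 59.2 CPM in DUX_DOX, with none higher and 2 lower. Of 11 satellite cell and myoblast markers, 4 were higher (Myod1, Myog, Vcam1 and Myh8) and 1 lower (Chodl). Only those 4 had a positive log2 fold change, and the median was -0.3. The sums were 84.7 to 122.9 CPM in EV_DOX and 111.8 to 122.5 CPM in DUX_DOX. Of 15 fibro-adipogenic markers 2 were higher (Mfap5 and Ly6a), and of 14 endothelial markers 1 was higher (Eng) and 1 lower (Kdr). Of 10 tenocyte markers 1 was higher (Tnc) and none passed as lower. The tenocyte median log2 fold change was -1.24, with 2 of 10 positive. Tenocyte sums were 139.9 to 1053 CPM in EV_DOX and 325.5 to 463.1 CPM in DUX_DOX. The 1 neutrophil marker measured of 8, Csf3r, was higher at a low level, with means of 0.659 CPM in EV_DOX and 1.45 CPM in DUX_DOX. Against DUX, where 16.5% of all genes were higher, some medians had the other sign. The tenocyte median was 0.67, with 10 of 10 positive, 1 higher and none lower. The satellite cell and myoblast median was 0.48, with 4 higher and none lower. Of B and plasma cell markers 1 was higher and none lower, and DUX sums were 54.4 to 66.4 CPM. Macrophage and monocyte markers had 16 higher and none lower, and muscle fibre markers 1 higher and 4 lower. What any of these cells contributed to the chaperone values was not tested.

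**Figure D2:**
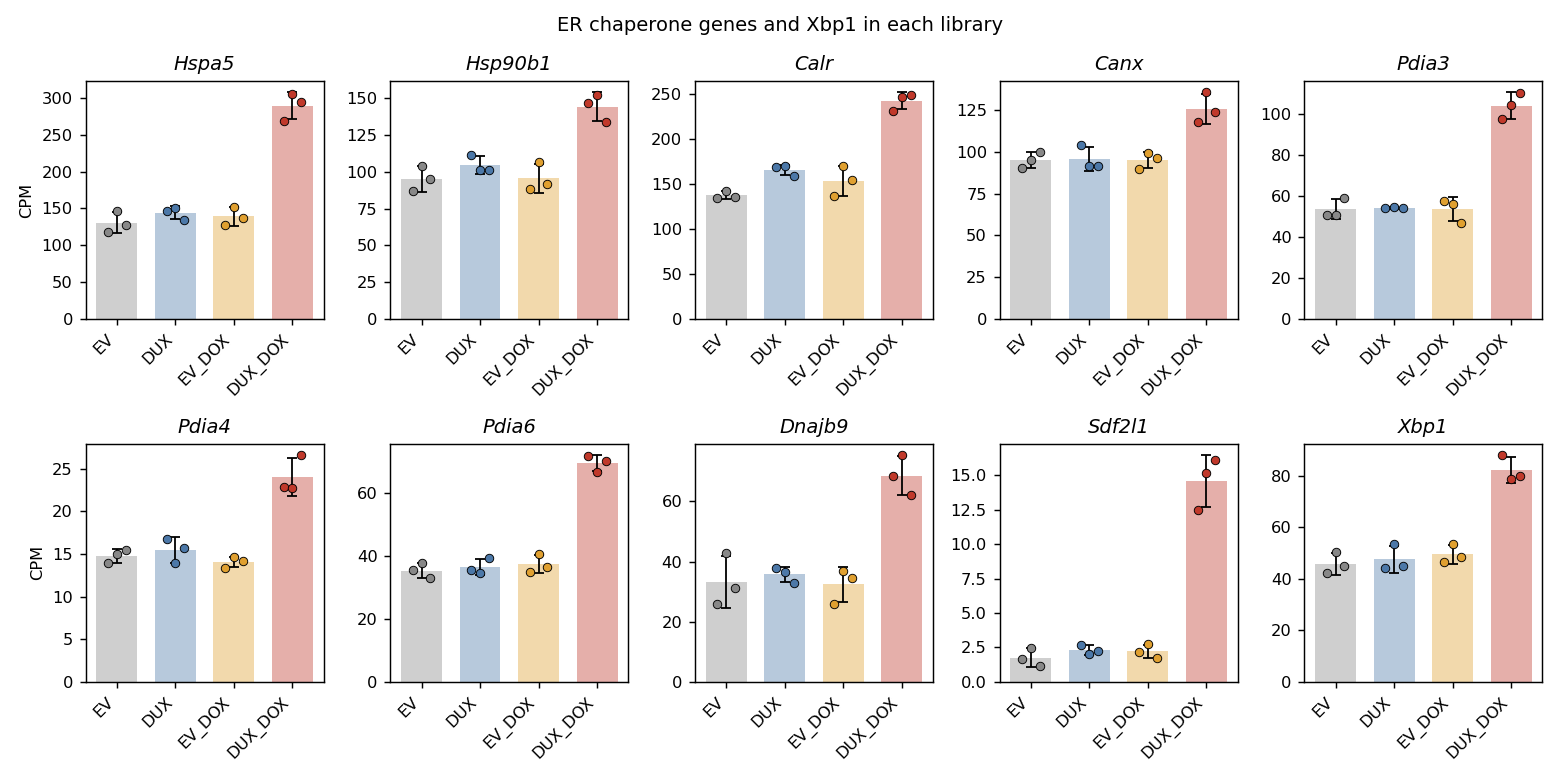
Level of each of the 10 genes in CPM in the 4 groups, with 1 point per library and bars and error bars for the mean and SD of 3 libraries; each panel has its own axis from 0. In every panel the 3 DUX_DOX points lie above the 9 others, by the largest ratio for Sdf2l1 (lowest DUX_DOX library 4.61 times the highest other library) and the smallest for Canx (1.13 times).

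Hspa5, Dnajb9 and Sdf2l1 belong to the Hsp70 system of the ER. Hspa5 (chr2:34771970-34777547, + strand) encodes BiP, the Hsp70 chaperone that binds unfolded chains and holds the stress sensors inactive. Its level was 127.5, 152.4 and 137.6 CPM in the EV_DOX libraries and 269.3, 304.8 and 293.9 CPM in the DUX_DOX libraries. EV had 118.7, 146.4 and 127.9 CPM and DUX 147.1, 151.2 and 134.6 CPM. The DUX_DOX libraries stood apart and the other groups overlapped one another. The log2 fold change of DUX_DOX against EV_DOX was 1.06 (SE 0.1, 95% confidence interval 0.85 to 1.26, adjusted p = 3.13e-06).

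Dnajb9 (chr12:44205559-44210326, - strand) encodes ERdj4, a J-domain protein that delivers clients to BiP. Its level was 25.8, 36.7 and 34.5 CPM in EV_DOX and 68.3, 75.4 and 62.2 CPM in DUX_DOX. In EV it was 25.8, 42.7 and 31.3 CPM and in DUX 37.8, 36.4 and 32.9 CPM, so the lowest DUX_DOX library was 1.46 times the highest other one. The spread within EV was wide for this gene, with a coefficient of variation of 26.0%. Dnajb9 rose by a log2 fold change of 1.09 (SE 0.16, interval 0.74 to 1.43, adjusted p = 0.00024).

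Sdf2l1 (chr16:17130138-17132383, - strand) encodes an ER-resident protein found in chaperone complexes with BiP. Per length of exon it was the least abundant of the 10 genes outside DUX_DOX, and its level was 1.65, 2.48 and 1.15 CPM in EV, 2.69, 2.0 and 2.24 CPM in DUX and 2.19, 2.71 and 1.72 CPM in EV_DOX. DUX_DOX libraries had 12.5, 15.2 and 16.1 CPM. Raw counts were 164, 213 and 208 in DUX_DOX and 15 to 35 in each other library, so the low groups rest on few reads. The log2 fold change of 2.72 (SE 0.22, interval 2.25 to 3.19, adjusted p = 8.68e-07) was the largest of the 10 and ranked 101 among all genes tested, while Dnajb9 ranked 566 and Hspa5 602.

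Hsp90b1 (chr10:86690209-86705509, - strand) encodes GRP94, the Hsp90 chaperone of the ER, which folds integrins and Toll-like receptors. Its level was 88.4, 106.6 and 91.8 CPM in EV_DOX and 146.8, 152.5 and 133.8 CPM in DUX_DOX. EV had 86.7, 103.8 and 95.0 CPM and DUX 111.5, 101.6 and 101.1 CPM, and no library outside DUX_DOX reached the DUX_DOX values. Hsp90b1 rose by a log2 fold change of 0.60 (SE 0.09, interval 0.39 to 0.8, adjusted p = 0.000402). Its exons share 415 bases (10.3% of their length) with the pseudogene 1810014B01Rik on the opposite strand, and the strand setting of the counting is not given in the sources used here. That pseudogene fell by 0.64 on the log2 scale (adjusted p = 0.0146), from 6.03 to 3.86 CPM.

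Calreticulin and calnexin are the lectin chaperones that hold glycoproteins carrying trimmed sugar chains, and Pdia3 encodes ERp57, the disulfide isomerase that works with both. Calr (chr8:84841850-84846934, - strand) had 136.5, 169.5 and 154.2 CPM in EV_DOX and 231.1, 245.7 and 248.8 CPM in DUX_DOX. In EV it had 134.3, 142.2 and 135.0 CPM and in DUX 168.3, 169.4 and 158.6 CPM. Here DUX lay wholly above EV, as it did for 11.3% of all genes, and DUX_DOX lay above both. Against EV_DOX, Calr in DUX_DOX rose by a log2 fold change of 0.66 (SE 0.08, interval 0.48 to 0.84, adjusted p = 7.07e-05).

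Canx (chr11:50293961-50325673, - strand), which encodes the membrane-bound calnexin, had 89.9, 99.2 and 96.0 CPM in EV_DOX and 117.5, 135.5 and 123.7 CPM in DUX_DOX. EV libraries had 90.3, 95.0 and 99.9 CPM and DUX libraries 103.9, 91.6 and 91.4 CPM. The groups other than DUX_DOX overlapped closely, and the highest of these libraries came near the lowest DUX_DOX one. The rise of Canx was the smallest of the 10, with a log2 fold change of 0.40 (SE 0.08, interval 0.22 to 0.58, adjusted p = 0.00291).

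Pdia3 (chr2:121413775-121438687, + strand) had 57.7, 56.0 and 46.8 CPM in EV_DOX and 97.2, 104.4 and 110.1 CPM in DUX_DOX. It was at 50.9, 50.6 and 58.9 CPM in EV and 53.9, 54.6 and 53.9 CPM in DUX, so the 9 libraries outside DUX_DOX covered one narrow range. Its log2 fold change of 0.96 (SE 0.09, interval 0.76 to 1.15, adjusted p = 4.49e-06) was larger than that of either lectin chaperone, with an interval that lay above that of Canx and overlapped that of Calr.

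Pdia6 and Pdia4 encode further disulfide isomerases, P5 and ERp72. Pdia6 (chr12:17266545-17284770, + strand) was at 35.0, 40.7 and 36.6 CPM in EV_DOX and 71.8, 66.8 and 70.3 CPM in DUX_DOX, with 33.0 to 39.3 CPM over the EV and DUX libraries. It rose by a log2 fold change of 0.89 (SE 0.08, interval 0.71 to 1.08, adjusted p = 3.74e-06). Pdia4 (chr6:47796141-47813430, - strand) was the less abundant isomerase, at 13.4, 14.6 and 14.2 CPM in EV_DOX, 22.8, 22.7 and 26.6 CPM in DUX_DOX and 13.9 to 16.8 CPM over the EV and DUX libraries. Its log2 fold change was 0.77 (SE 0.1, interval 0.55 to 0.99, adjusted p = 0.000109). Both genes separated DUX_DOX from all other libraries without overlap.

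Xbp1 (chr11:5520659-5525893, + strand) had 46.4, 53.7 and 48.5 CPM in EV_DOX and 88.1, 78.7 and 80.1 CPM in DUX_DOX. EV libraries were at 42.1, 50.5 and 44.8 CPM and DUX libraries at 44.3, 53.7 and 44.8 CPM, so the 3 other groups overlapped and DUX_DOX stood above them. Xbp1 rose by a log2 fold change of 0.73 (SE 0.1, interval 0.52 to 0.94, adjusted p = 9.87e-05). Counts per gene add the spliced and the unspliced form of Xbp1 mRNA, so the share that IRE1 had spliced was not analysed here.

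The Dux vector was next compared between chows. All 10 genes were higher in DUX_DOX than in DUX, where 16.5% of genes tested rose and 29.6% changed. The log2 fold changes were 2.66 for Sdf2l1, 1.0 for Hspa5, 0.94 for Dnajb9 and Pdia3, 0.93 for Pdia6, 0.79 for Xbp1, 0.63 for Pdia4, 0.55 for Calr, 0.46 for Hsp90b1 and 0.39 for Canx. The adjusted p was 0.00298 for Canx, the highest of the 10. This comparison shares the DUX_DOX libraries with the one above, so the pair of comparisons is not independent.

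Doxycycline alone and the uninduced Dux vector gave no call among the 10 genes. In EV_DOX against EV no gene of the 10 passed the test, against 0.0392% of all genes, and their log2 fold changes ran from -0.07 (Pdia4) to 0.33 (Sdf2l1, interval -0.25 to 0.91). None of the 10 had an unadjusted p under 0.05 in edgeR there, and limma-voom and DESeq2 each called 0. In DUX against EV 0 of 10 passed, as did 0 of all genes (0.0%), with log2 fold changes of 0.01 to 0.39. Calr was the 1 gene of the 10 with an unadjusted p under 0.05 (log2 fold change 0.27, SE 0.08, interval 0.09 to 0.45, adjusted p = 0.212, and 0.0618 to 0.505 over the alternative settings), and limma-voom and DESeq2 called 0 of the 10. Over all genes, 2012 had an unadjusted p under 0.05 in that comparison, limma-voom called 0 and DESeq2 called 153.

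The interaction of vector and chow asks whether the difference between Dux and empty vector was the same on both chows. The estimated difference was larger on doxycycline chow for all 10 genes, and 9 of 10 passed the test. Over all genes, 6.97% passed with a positive interaction and 10.4% with either sign. The log2 difference was 2.33 for Sdf2l1 (SE 0.35, adjusted p = 0.000899) and 0.98 for Dnajb9 (SE 0.23, adjusted p = 0.0147). It was 0.94 for Pdia3 (SE 0.13, adjusted p = 0.000448) and 0.92 for Hspa5 (SE 0.14, adjusted p = 0.000772). Calr, whose level was also higher in DUX than in EV, did not pass, with a difference of 0.39 (SE 0.12, interval 0.13 to 0.64, adjusted p = 0.053). Hsp90b1 (adjusted p = 0.043) and Canx (adjusted p = 0.0476) passed narrowly, and lost the call under 11 and 14 of 19 alternative settings.

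**Figure D3:**
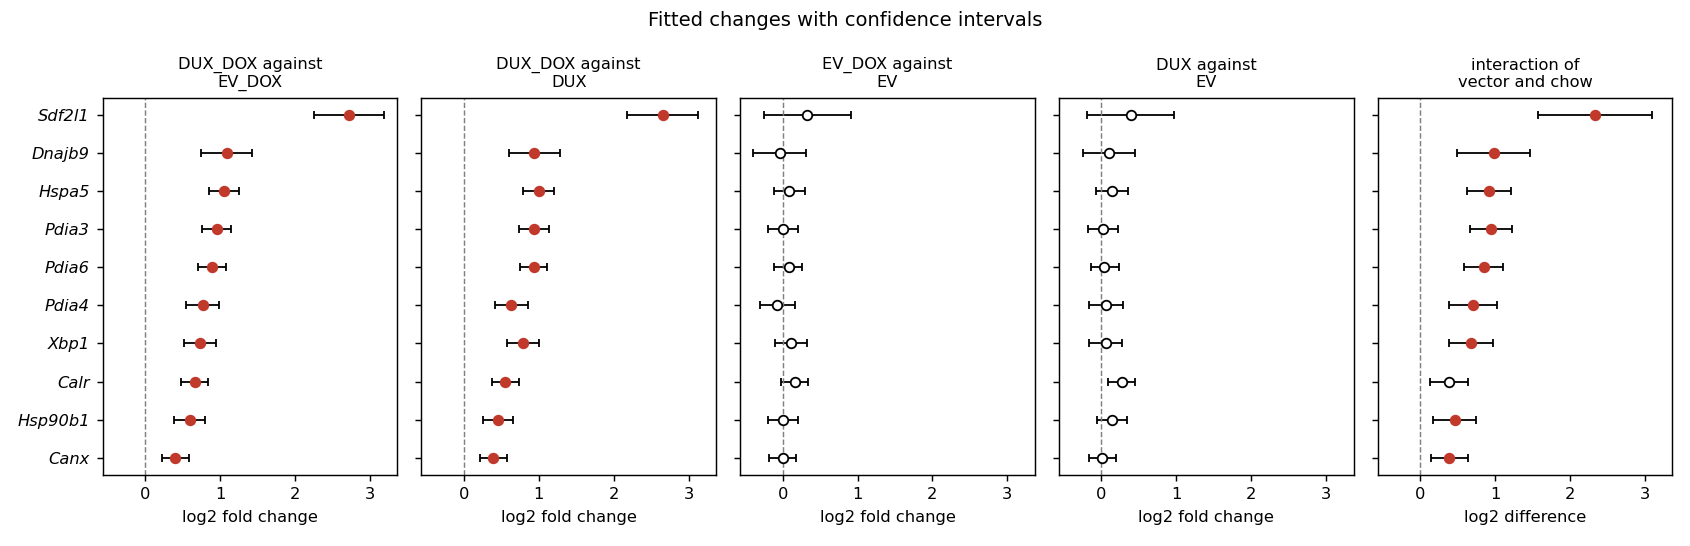
Fitted log2 fold changes of the 10 genes in 4 comparisons, and the log2 difference of the interaction, with 95% confidence intervals; filled points passed an adjusted p of 0.05. All points are filled in both comparisons that involve DUX_DOX, none in EV_DOX against EV or DUX against EV, and all but Calr in the interaction.

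The order of abundance was compared on a second scale, CPM per kilobase of annotated exon, since counts grow with transcript length. The length joins the exons of all annotated transcripts of a gene, which can exceed the transcript expressed, so the order between genes is approximate. In EV, Calr led with 47.6 CPM per kilobase, followed by Hspa5 with 31.0, Hsp90b1 with 23.6, Canx with 20.3 and Pdia3 with 17.0 CPM per kilobase. Xbp1 (14.1 CPM per kilobase) and Dnajb9 (13.1) overlapped in their ranges, and Pdia6 (9.46), Pdia4 (6.16) and Sdf2l1 (1.59) came last. In DUX_DOX the order differed. Calr (84.0 CPM per kilobase) and Hspa5 (68.4) still led, and Pdia3 (33.1) overlapped Hsp90b1 (35.8). Dnajb9 (26.9), Canx (26.8) and Xbp1 (25.3) had overlapping ranges below them. Sdf2l1, at 13.2 CPM per kilobase, lay above Pdia4 at 10.0 CPM per kilobase, which it had been below in the other groups.

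**Figure D4:**
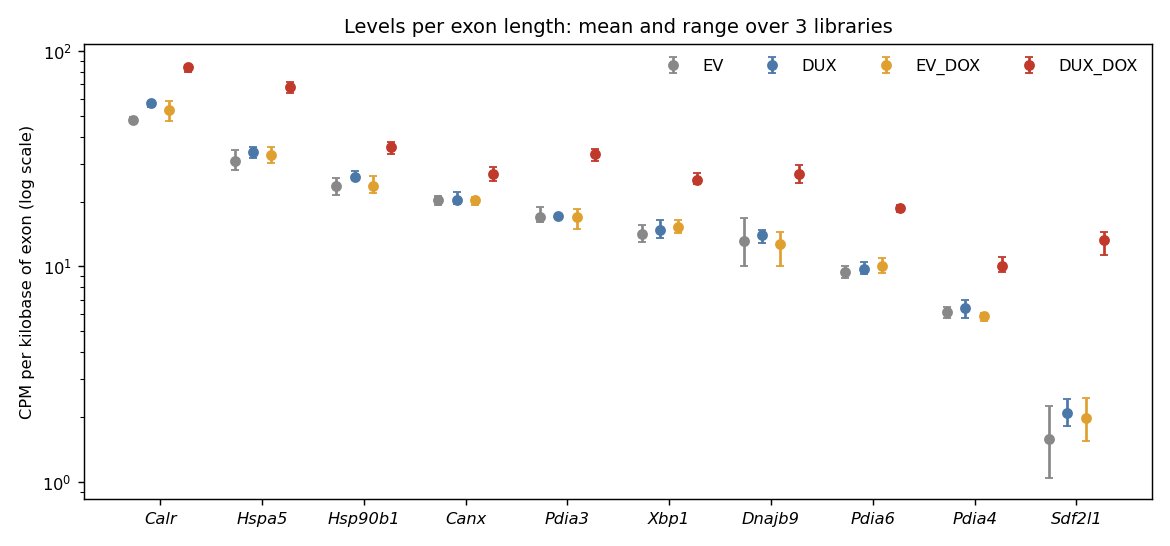
Level of each gene in CPM per kilobase of exon on a log axis, as the mean (point) and range (bar) of 3 libraries in each group, ordered by the level in EV. Calr and Hspa5 lead in every group, and Sdf2l1 moves from 1.59 in EV to 13.2 in DUX_DOX.

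Within EV and EV_DOX, single libraries held the highest or lowest value of many of the 10 genes. How often the same libraries were highest or lowest over all genes was not counted, so this may not be particular to these genes. The second EV_DOX library had the highest EV_DOX value for 9 of the 10 genes and the first the lowest for 8, and in EV the second library was highest for 7 and the first lowest for 7. The first EV_DOX library also stood apart in tenocyte markers, which summed to 1053 CPM there against 216.9 and 139.9 CPM in the others, and had 5474 CPM of fibro-adipogenic markers against 3478 and 1630 CPM. The third EV library had 1126 CPM of tenocyte markers against 335.3 and 192.2 CPM. With any of these libraries left out, all 10 genes still passed in both comparisons that involve DUX_DOX, and the part of these cells in the variation within groups was not tested. Over the 9 libraries outside DUX_DOX, log2 CPM of Hspa5 correlated with that of Dnajb9 at Pearson r = 0.877, of Hsp90b1 at 0.854, of Calr at 0.828 and of Xbp1 at 0.791. Sdf2l1 had r = 0.645 with Hspa5, Canx 0.444, Pdia6 0.42, Pdia4 0.273 and Pdia3 -0.036. With Xbp1, r over the same libraries ran from -0.303 (Pdia4) to 0.791 (Hspa5), and was 0.041 for Canx and -0.007 for Pdia3. These are descriptions over libraries that share groups and scaling. Among 9340 genes with at least 5 CPM on average, those most like Hspa5 over all 12 libraries were H3f3b (r = 0.992), which encodes a replacement histone H3, and Twf2, Nasp and Rnf19b (each r = 0.99). For Xbp1 they were Manf, H3f3b and Cldnd1 (each r = 0.977) and Twf2 (r = 0.976). Manf encodes a neurotrophic factor of the ER that binds BiP. The 3 DUX_DOX libraries weigh heavily in these values. Over the other 9 libraries r was 0.87 for H3f3b with Hspa5 and 0.731 for Manf with Xbp1.

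Other genes of the ER showed smaller and more mixed differences in DUX_DOX against EV_DOX. Among 46 other ER folding genes measured, 15 were higher and 2 lower, with a median log2 fold change of 0.28, beside 14.9% higher and 10.3% lower over all genes. Manf rose from 12.4 to 29.9 CPM (log2 fold change 1.28, SE 0.12, adjusted p = 3.95e-06), and Hyou1, the large Hsp70-like nucleotide exchange factor of BiP, from 30.0 to 48.4 CPM (0.69, SE 0.09, adjusted p = 5.79e-05). Of 37 genes of ER-associated degradation, which returns misfolded proteins to the proteasome, 11 were higher and 3 lower, with a median of 0.04. Edem1, which removes mannose from misfolded glycoproteins, rose from 8.65 to 18.5 CPM (1.09, SE 0.14, adjusted p = 5.2e-05), and Ubxn4 rose by 0.52 on the log2 scale (adjusted p = 0.000422).

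Genes that bring proteins into and out of the ER are to be read beside the 14.9% higher and 10.3% lower over all genes. Of 37 translocation and signal peptidase genes, 8 were higher and 2 lower, with a median of 0.06. Sec61a1, the channel subunit of the translocon, rose by 0.88 (SE 0.13, adjusted p = 0.000293) and Ssr2 by 0.47 (adjusted p = 0.00121) on the log2 scale. Of 31 N-glycosylation and glucose trimming genes, 6 were higher and none lower, among them the oligosaccharyltransferase subunits Ddost (0.55, adjusted p = 0.000286) and Stt3a (0.60, adjusted p = 0.000726). Of 38 ER to Golgi transport genes, 11 were higher and 3 lower. Kdelr2, a receptor that returns ER proteins such as BiP from the Golgi, rose by 0.52 (adjusted p = 0.00183) and Ergic2 by 0.60 (adjusted p = 0.000138).

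The stress sensors themselves moved less evenly. Ern1, which encodes IRE1, had 17.1 ± 0.549 CPM in EV_DOX and 19.4 ± 2.37 CPM in DUX_DOX (SD, n = 3 libraries) and did not pass (log2 fold change 0.18, SE 0.1, adjusted p = 0.224 in edgeR). Atf6 had 41.8 and 44.5 CPM and did not pass either (0.09, SE 0.09, adjusted p = 0.485). Eif2ak3, which encodes PERK, rose from 6.64 to 10.4 CPM (0.64, SE 0.17, adjusted p = 0.0139), a call that was lost without the third EV_DOX library (adjusted p = 0.0604) or the third DUX_DOX library (adjusted p = 0.0612). Of the 20 sensor and processing genes measured, 5 were higher and 3 lower, beside 14.9% and 10.3% of all genes, and the smallest p-values among those with at least 5 CPM were those of Bax, which promotes apoptosis (0.54, adjusted p = 0.0125) and Nfya, a subunit of the factor that binds CCAAT boxes (0.58, adjusted p = 0.0139). Bax lost its call without the second EV_DOX library (adjusted p = 0.0662) or the third DUX_DOX library (0.0663), and Nfya without the third EV_DOX library (0.0534) or the second DUX_DOX library (0.0587).

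Genes of the PERK and ATF4 branch had the widest range of the ER lists. Of 24 measured, 11 were higher and 1 lower, with a median of 0.51, beside 14.9% higher and 10.3% lower over all genes. Atf3, a stress-induced transcription factor, went from 2.59 to 200.6 CPM (log2 fold change 6.28, SE 0.29, adjusted p = 3.62e-09), and Ppp1r15a, which encodes the phosphatase subunit GADD34 that reverses PERK signalling, from 22.0 to 149.6 CPM (2.76, SE 0.12, adjusted p = 2.57e-09). Atf4 itself, named after its values were seen, was among the 11 higher genes, with a log2 fold change of 0.83. A few other well-known genes of the unfolded protein response, also chosen after their values were seen, did not rise in this comparison. Ddit3, which encodes CHOP, had 12.9 CPM in both groups (0.01, SE 0.21, adjusted p = 0.988), and did not pass in DUX_DOX against DUX either (-0.17, adjusted p = 0.582). Dnajc3, which encodes the BiP co-chaperone P58IPK, had 41.9 and 43.9 CPM (0.07, SE 0.08, adjusted p = 0.57), but rose in DUX_DOX against DUX (0.24, SE 0.08, adjusted p = 0.0393). Herpud1, a gene of ER-associated degradation, fell from 94.1 to 75.8 CPM (log2 fold change -0.31, SE 0.09, adjusted p = 0.0189), a call that was lost in the fit to only the groups compared (adjusted p = 0.0649), without the third EV_DOX library (0.0862) and without the second DUX_DOX library (0.0746). Herpud1 was also lower in DUX_DOX than in DUX (-0.39, adjusted p = 0.00488).

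The ER stress element was also read beyond the 10 genes. It occurred in windows of 37 genes, of which 15 were measured, among them 10 outside the set described here. Of those 10, 2 were higher and 1 lower, which is close to the 14.9% higher and 10.3% lower over all genes. Their median log2 fold change was 0.07, beside -0.01 over all genes. The higher ones were Creld2 (log2 fold change 1.02, SE 0.16, adjusted p = 0.000378) and Syvn1, the ubiquitin ligase of ER-associated degradation (0.44, SE 0.08, adjusted p = 0.000823). The lower one was Acacb (-0.59, SE 0.13, adjusted p = 0.00352). Dnajc3, described above, was among those that did not pass. Within the set, Sdf2l1, Dnajb9, Pdia3, Pdia4 and Xbp1 had no complete element in their windows.

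Chaperones of other compartments were set beside those of the ER. Their counts are to be read beside the 14.9% higher and 10.3% lower over all genes. Of 36 genes of the cytosolic Hsp70 and Hsp90 system, 21 were higher and none lower, with a median of 0.33. The symbol Hspa14 is counted under each of its gene identifiers, and passed under neither. The stress-inducible genes Hspa1a and Hspa1b reached 208.6 and 247.2 CPM in DUX_DOX from 1.35 and 0.808 CPM in EV_DOX. Their log2 fold changes were 7.27 and 8.23, and the split of reads between these nearly identical genes is uncertain. Of 20 mitochondrial chaperones and proteases, 1 was higher, Hspe1 (0.48, adjusted p = 0.0494, up to 0.166 over the alternative settings), and 1 lower, Clpx (-0.36, adjusted p = 0.00673), with a median of -0.12. Among 17 sarcoplasmic reticulum calcium proteins none was higher and 6 were lower, with a median of -0.24. Hrc, the histidine-rich calcium-binding protein, went from 1033 to 700.8 CPM (-0.56, adjusted p = 0.000688), and Trdn, triadin of the calcium release complex, from 1202 to 825.9 CPM (-0.54, adjusted p = 0.00107). These falls accompanied the lower summed level of muscle fibre markers given above, whose part was not tested.

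**Figure D5:**
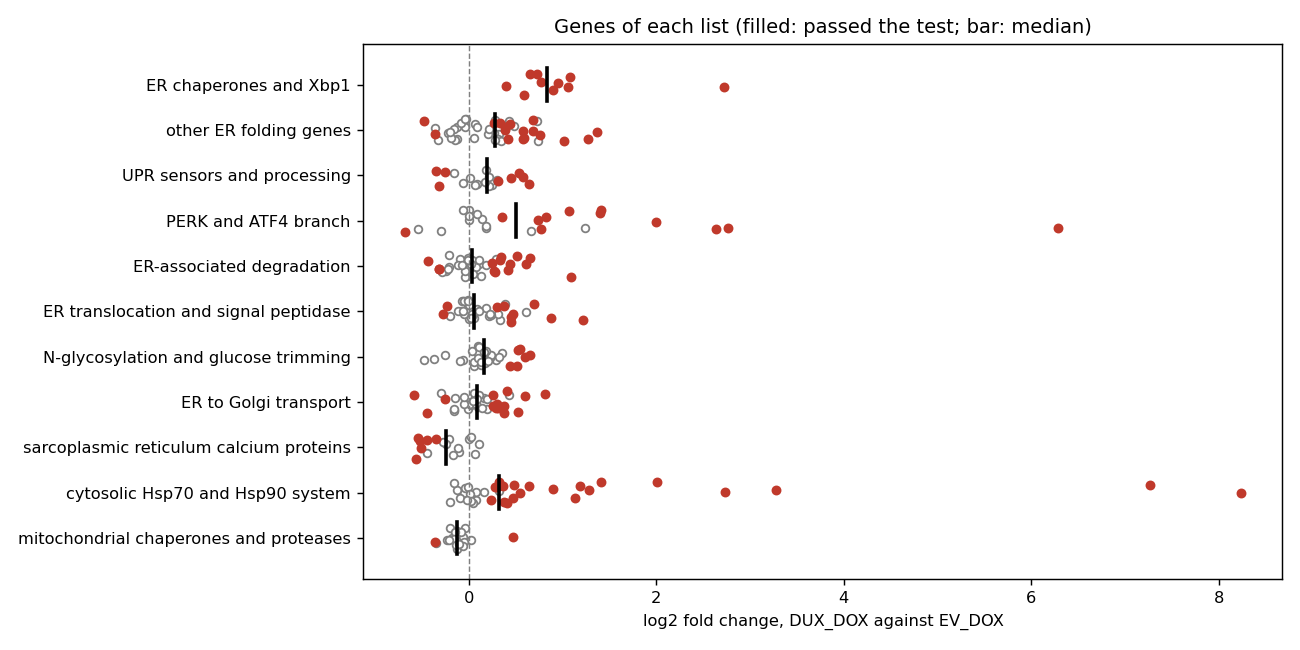
Log2 fold change of DUX_DOX against EV_DOX for each measured gene of the 10 genes and of 10 further lists, with filled points for genes that passed the test and a bar at the median. The 10 ER genes all lie to the right of 0, the sarcoplasmic reticulum calcium proteins mostly to the left, and cytosolic chaperones extend to 8.23 for Hspa1b.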

How the data were processed

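The authors' deposited table held raw read counts per gene, and the submitters' processing notes name STAR, featureCounts, bcl2fastq 2.17.1.14 and the build GRCm38. Which annotation and strand setting the counting used is not given in the sources used here. Libraries were poly-A selected from 200 ng of RNA, per the labels. The lowest mean count was 10. edgeR 4.0.16 in R 4.3.3 (quasi-likelihood F test, two-sided, TMM factors, default filter on low counts) was fitted to all 12 libraries with 1 mean per group, and p-values were adjusted by Benjamini-Hochberg over 12751 genes. CPM use the TMM-adjusted totals. Gene positions and exon lengths are from the GENCODE annotation of GRCm38. Beside the 10 genes, the text names the 2 genes of smallest p per list (at least 5 CPM), the 4 most alike to Hspa5 and to Xbp1, the 3 stress sensors, and a few genes chosen after their values were seen. The gene set and lists were chosen with earlier results of these data known. Dux itself is not analysed here. Alternatives were limma-voom (limma 3.58.1), DESeq2 1.42.0, other scalings and filters, fewer groups, a replicate block and leaving out each library. The steps were tested on simulated data.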

Additional observations from a re-analysis of the deposited data

Results flagged for a closer look

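Of the 10 genes, 9 passed the interaction test of edgeR, which asks whether the difference between Dux and empty vector was the same on the 2 chows. Over all genes 10.4% passed, and 6.97% passed with a positive interaction. In each the difference was larger on doxycycline chow. The log2 difference was 2.33 for Sdf2l1, 0.98 for Dnajb9, 0.94 for Pdia3, 0.92 for Hspa5, 0.85 for Pdia6, 0.71 for Pdia4, 0.68 for Xbp1, 0.46 for Hsp90b1 and 0.39 for Canx. Adjusted p-values ran from 0.000448 (Pdia3) to 0.0476 (Canx). The calls of Hsp90b1 and Canx were lost under 11 and 14 of 19 alternatives, among them the replicate block (adjusted p = 0.069 and 0.0843).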

How the results depend on the processing

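For both comparisons with DUX_DOX, all 10 genes kept their direction and their call under all 20 alternatives. In the interaction 163 of 190 values kept both, 25 lost the call and 2 gained it. Calr gained it with DESeq2 (adjusted p = 0.0286) and without the second EV_DOX library (0.0436). The adjusted p ran from 0.0269 to 0.109 for Hsp90b1 and from 0.0345 to 0.125 for Canx, and 7 to 9 of the 10 genes were called as single libraries were left out. The labels do not say which limbs share a mouse. In no pair of groups did all same-numbered libraries correlate above 0.1. With 3 libraries a group that check cannot exclude pairing, so a replicate block was fitted as an alternative. With a replicate block, genes called were 2817 (DUX_DOX against EV_DOX), 3626 (DUX_DOX against DUX), 0 (EV_DOX against EV), 0 (DUX against EV) and 1007 (interaction), and the 10 genes gave 10, 10, 0, 0 and 7 calls.

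Over all genes, EV_DOX against EV gave 5 calls, but 0 with limma-voom, 12 with DESeq2, 1 with upper-quartile factors, 0 with only the groups compared, 0 with the replicate block and 0 to 10 with a library left out. DUX against EV gave 0 calls, 153 with DESeq2 and 0 to 118 with a library left out. Leaving out a library gave 2109 to 3355 calls in DUX_DOX against EV_DOX (2109 without the third DUX_DOX library) and 813 to 2148 in the interaction. The share of interaction calls that were positive was 67.0%, and 56.9% with upper-quartile factors.

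Some log2 fold changes near 0 changed sign over the alternatives, which include leaving out each library. The ranges below are over all alternatives. In EV_DOX against EV, Hsp90b1 ranged from -0.07 to 0.07 and Dnajb9 from -0.19 to 0.18. In DUX against EV, the ranges were -0.05 to 0.05 for Canx, -0.02 to 0.09 for Pdia3, -0.01 to 0.09 for Pdia6, -0.05 to 0.32 for Dnajb9 and -0.04 to 0.13 for Xbp1. In DUX_DOX against EV_DOX, Ddit3 ranged from -0.2 to 0.27, and was -0.01 with DESeq2, with RLE factors and with only the groups compared, -0.02 with a minimum of 1 CPM and -0.03 with upper-quartile factors. The cause of these changes was not tested. Sdf2l1 had 15 to 35 reads per library outside DUX_DOX, and its SE of 0.27 in EV_DOX against EV and in DUX against EV was the largest of the 10 genes.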
